A study of Mus musculus with 6 samples.

Results

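Histone acetylation is written by acetyltransferases, removed by histone deacetylases (HDACs) and read by proteins that carry a bromodomain. The RNA levels of 35 genes of the first and the last of these classes were followed in the E15.5 mouse ovary after gestational exposure to panobinostat (PB), an inhibitor of HDACs. The members were named by function, 13 as acetyltransferases (writers) and 22 as bromodomain proteins (readers), out of 35974 gene names in the deposited transcriptome. All transcripts that carried one of these names were taken, which gave 408 transcripts (87 of writers and 321 of readers) of 114412. Of these, 358 matched a RefSeq intron chain, 42 were assembled splice forms that are not in RefSeq, 4 retained an intron and 4 lay on the opposite strand or outside the named gene. In 22 of the 408 the count was 0 in every library.

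Pregnant C57BL/6J mice received PB by gavage at 5 mg/kg between E6.5 and E15.5 (embryonic days), and control mice received the DMSO and water in which the drug was given. The labels give the dose per day, whereas the study describes dosing on alternate days. Ovaries were dissected at E15.5, and polyadenylated RNA was sequenced with a strand-specific kit from 3 pools of ovaries per group (control 1 to 3 and PB 1 to 3). The number of ovaries per pool is given as 4 in one label and as 6 to 8 in another, and the study's methods give a different minimum.

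Acetylation of lysines on histone tails loosens nucleosomes and creates docking sites for bromodomains, and HDACs reverse both. Writers fall into the GNAT, MYST and p300/CBP families, while the nuclear receptor coactivators recruit other writers and have been credited with an activity of their own. Readers are mostly subunits of larger machines: BET proteins link acetylated chromatin to transcription elongation, BRPF proteins hold MYST enzymes together, and other readers sit in SWI/SNF or ISWI remodellers. In the fetal ovary these proteins act both in germ cells, which enter meiosis at this stage, and in the somatic cells around them.

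The libraries held 97165644 to 125985399 counts each, and 3 counts, taken as the detection limit, equal 0.0238 to 0.0309 CPM (counts scaled to the library total). All 7 germ cell markers and all 7 pregranulosa markers on lists of cell type markers were detected in every pool. So were all 5 mesonephros and all 5 testis cell markers, so detection alone does not show ovarian identity. The summed testis cell markers ranged from 48.5 to 51.9 CPM in control and from 20.6 to 51.4 CPM in PB. Most of this sum was Hsd3b1, with 43.3, 45.6 and 42.2 CPM in control and 14.8, 45.04 and 39.01 CPM in PB. The low sum of PB 1 therefore came from Hsd3b1. Dhh, Amh and Insl3 reached at most 1.62 CPM in any pool, and Cyp17a1 lay between 3.24 and 4.44 CPM. The summed germ cell markers (Ddx4, Dazl, Mael, Sycp3, Stra8, Dppa3 and Tdrd1) reached 776, 577 and 767 CPM in control and 834, 496 and 890 CPM in PB, in the order of the pool numbers. They were thus lowest in the pools numbered 2 of both groups. The summed pregranulosa markers ranged from 851 to 945 CPM in control and from 836 to 899 CPM in PB. In bulk RNA, fewer cells of a type and less RNA per cell cannot be told apart. The labels do not say that pools came from separate litters, so the p-values below measure the spread between these pools.

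All 35 members were expressed above the filter on low counts. Per kb of exon, Hat1, which acetylates newly made histone H4 before it enters chromatin, was the most abundant writer, with 83.6 ± 4.47 CPM per kb in control and 85.9 ± 13.5 in PB (SD, n = 3). Kat2b (PCAF), a GNAT enzyme, was the least abundant writer, with 3.16 ± 0.363 and 3.17 ± 0.432 CPM per kb (SD, n = 3). Among readers the range ran from Brdt, the BET protein of germ cells, with 3.52 ± 0.593 CPM per kb in control and 3.39 ± 0.86 in PB, to Brd2, a BET protein of all tissues, with 43.9 ± 2.49 and 44.1 ± 2.01. The median member level in control was 13.0 CPM per kb for writers and 16.4 for readers. Of the related pair Ep300 (p300) and Crebbp (CBP), which acetylate histone H3 at enhancers, Ep300 stood at 17.4 ± 0.22 and Crebbp at 11.2 ± 0.503 CPM per kb in control. Levels per kb use the length of each assembled transcript, so they carry any error in how reads were divided among transcripts.

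**Figure D1:**
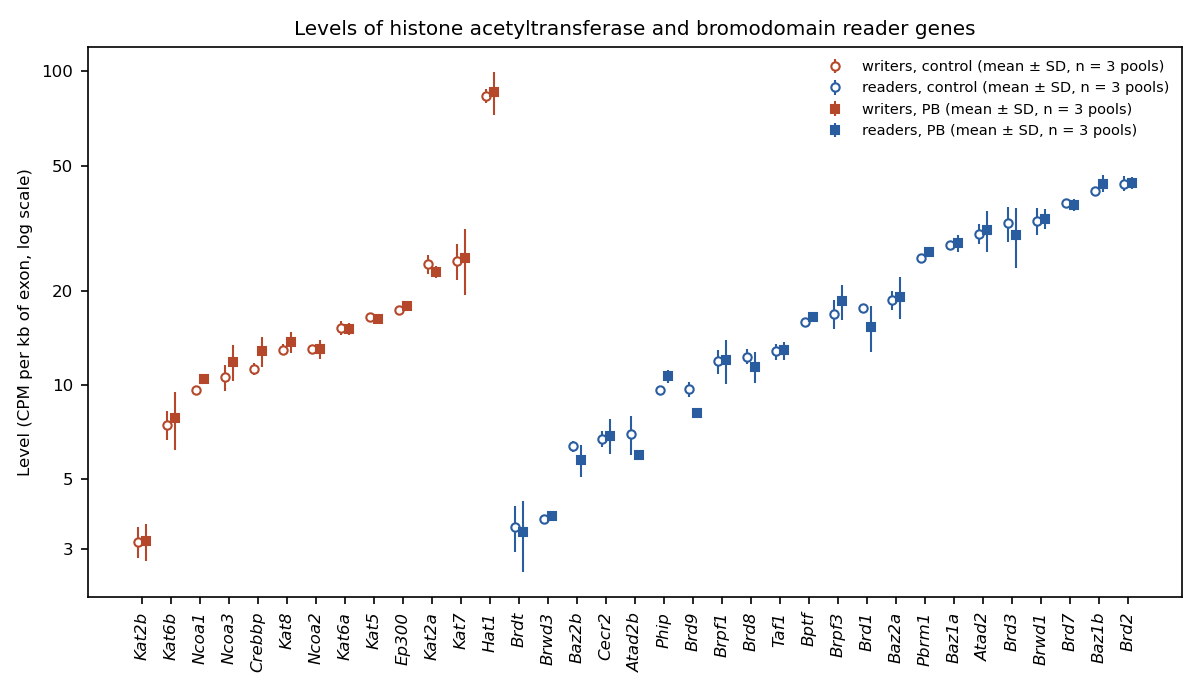
Mean level of each member in CPM per kb of exon (log axis) in control (open circles) and PB (filled squares), with the SD of 3 pools; red, writers; blue, readers. Hat1 lies above all other members, and Kat2b, Brdt and Brwd3 lie lowest.

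The question of the design is whether PB changed these genes. Counts of all transcripts of a gene were summed and compared with edgeR's quasi-likelihood test, where a call needed a 2-fold change and a false discovery rate (FDR) of at most 0.05. No member was called, in either direction. Over all 19435 genes tested, 3 were called (0.0154%). At an unadjusted p below 0.05 there were 4 members of 35, beside 4.46% of all genes, and all 4 had an FDR of 0.888. In 4 of the 35 members the control and PB pools did not overlap, beside 10.7% of all genes. DESeq2 also called 0 members, beside 0.0536% of all genes, with 3 at an unadjusted p below 0.05.

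The differences were small in size. In 27 of 35 members the log2 difference between PB and control was below 0.1 in either direction, a range that held 50.1% of all genes. The largest was 0.24. The median standard error of a member was 0.07 on the log2 scale, against 0.12 over all genes tested. Of the members, 23 were nominally higher in PB and 12 lower, beside 50.7% of all genes nominally higher.

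Writers and readers were then set side by side. Of 13 writers, 8 were nominally higher in PB and 5 lower, with a median log2 difference of 0.03 and a range from -0.09 to 0.16. Of 22 readers, 15 were nominally higher and 7 lower, with a median of 0.03 and a range from -0.24 to 0.15. The median over all genes was 0.00. The writer median minus the reader median was 0.0049 on the log2 scale. In single pools the same quantity was 0.0025, -0.0074 and -0.011 in control and 0.036, 0.12 and -0.044 in PB. Its SD between the PB pools was 0.083, and the control pools lay closer together. The PB pools lay on both sides of the control pools, so a shift of one side against the other was not seen above their spread.

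**Figure D2:**
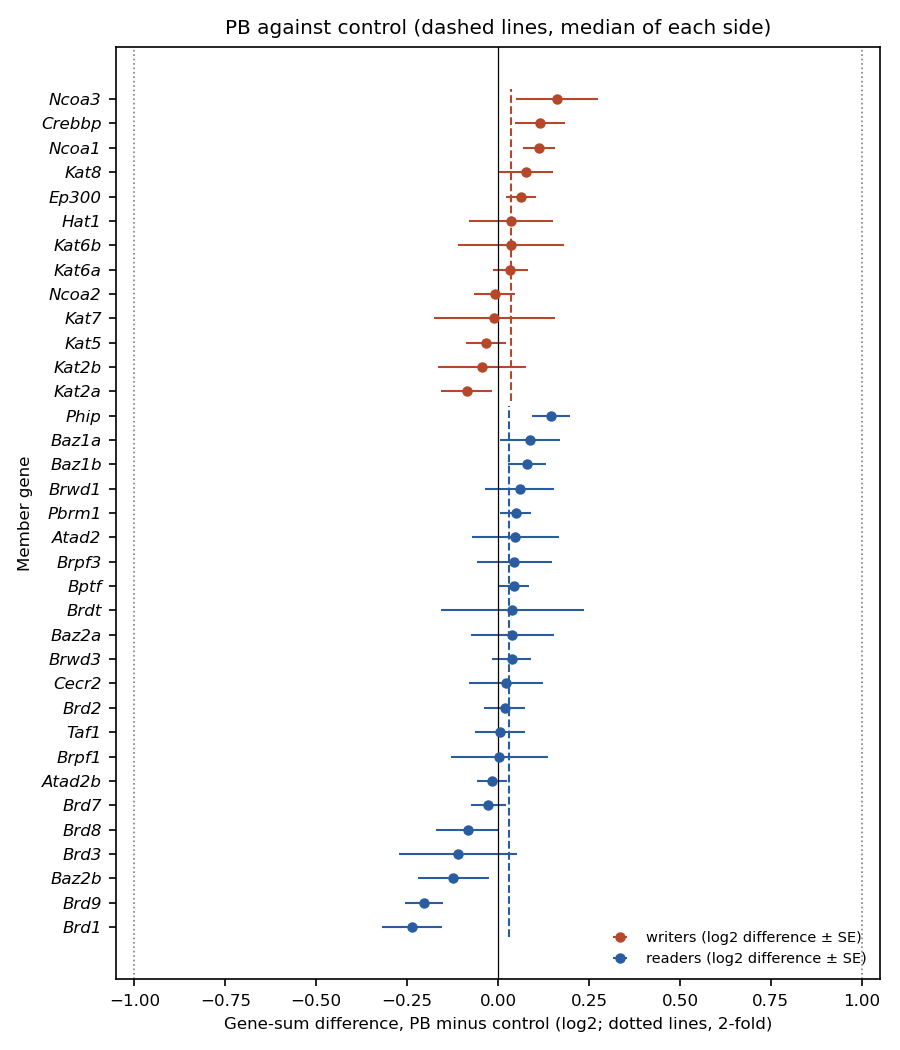
Log2 difference of each member's summed counts, PB minus control, with its standard error (edgeR); red, writers; blue, readers. All members lie between -0.24 and 0.16, well inside the dotted lines at a 2-fold change, and the dashed medians of both sides lie at 0.03.

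Among families, the nuclear receptor coactivators had the highest median of the writers, 0.11 over 3 genes. Ncoa1 (SRC-1), which binds ligand-loaded nuclear receptors, had 73.9, 71.7 and 72.4 CPM in control and 80.8, 76.7 and 78.2 CPM in PB (pools in the order of their numbers). All PB pools were above all control pools, with a log2 difference of 0.11 ± 0.04 (SE, FDR = 0.888). It was the only writer with an unadjusted p below 0.05. Ncoa3 had the largest point estimate of the writers, 0.16 ± 0.11, and Ncoa2 stood at -0.01 ± 0.06.

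The p300/CBP pair had the next smallest p-values of the writers. Crebbp was measured at 111, 115 and 123 CPM in control and at 123, 137 and 118 CPM in PB. The pools overlapped, and the log2 difference was 0.11 ± 0.07 (SE, FDR = 0.888). Ep300 was measured at 159, 160 and 165 CPM in control and at 171, 171 and 163 CPM in PB. PB 3 lay inside the control range, and the log2 difference was 0.06 ± 0.04 (SE, FDR = 0.888). When only RefSeq transcripts were summed, the Ep300 difference turned to -0.36, as the counts of its isoforms show further on.

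In the GNAT family, Kat2a (GCN5), the catalytic subunit of SAGA and ATAC, had 77.2, 71.0 and 82.7 CPM in control and 72.8, 75.7 and 69.1 CPM in PB. The lowest pool was PB 3 and the highest control 3, with overlap, and the log2 difference was -0.09 ± 0.07 (SE, FDR = 0.888). Its paralogue Kat2b had 13.8, 17.2 and 14.98 CPM in control and 15.6, 16.1 and 12.8 CPM in PB. Here both the highest value (control 2) and the lowest (PB 3) left the groups overlapping, with a log2 difference of -0.04 ± 0.12 (SE, FDR = 0.956). Hat1 had 145, 130 and 136 CPM in control and 150, 116 and 156 CPM in PB, so that PB held both the lowest and the highest pool. Its log2 difference was 0.04 ± 0.12 (SE, FDR = 0.964).

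In the MYST family the log2 differences ran from -0.03 to 0.08 over 5 genes. Kat5 (TIP60), the enzyme of the NuA4/TIP60 complex, had 34.3, 33.8 and 34.8 CPM in control and 35.2, 33.0 and 32.3 CPM in PB. These pools differed by less than the spread within PB, and the log2 difference was -0.03 ± 0.05 (SE, FDR = 0.922). Kat6a and Kat6b (MOZ and MORF), Kat7 (HBO1) and Kat8 (MOF) had FDRs of 0.911, 0.974, 0.994 and 0.888. Kat7 had the widest error of the writers, 0.17 on the log2 scale, with PB 2 at 77.5 CPM and the other PB pools at 112 and 113.

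The smallest p-value of any member was that of Brd9, a reader in the non-canonical BAF remodeller. It was measured at 25.8, 27.6 and 26.6 CPM in control and at 23.3, 23.03 and 23.2 CPM in PB. All PB pools were below all control pools, with a log2 difference of -0.20 ± 0.05 (SE, FDR = 0.888). The other SWI/SNF readers of the set did not share this value: Brd7 stood at -0.03 ± 0.05 and Pbrm1 at 0.05 ± 0.04.

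Brd1 (BRPF2), a scaffold of the Kat7 complex, had the largest point estimate. It was measured at 92.6, 93.3 and 89.7 CPM in control and at 73.9, 87.9 and 72.1 CPM in PB. PB 2 lay just under the lowest control pool and the other PB pools were well below it, which gave a log2 difference of -0.24 ± 0.08 (SE, FDR = 0.888). Without PB 2 the estimate was -0.33 and its FDR 0.0984, the smallest FDR of a member under any setting tried. With RefSeq transcripts alone the difference was 0.00, since most Brd1 counts were assigned to assembled models. The other BRPF scaffolds stood at 0.00 ± 0.13 (Brpf1) and 0.04 ± 0.10 (Brpf3).

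Phip, a WD40 and bromodomain protein that serves as a substrate receptor of a ubiquitin ligase, was measured at 104, 109 and 109 CPM in control and at 112, 124 and 120 CPM in PB. All PB pools were above the control pools, with a log2 difference of 0.15 ± 0.05 (SE, FDR = 0.888). Its relatives Brwd1 and Brwd3 stood at 0.06 ± 0.09 and 0.04 ± 0.05.

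The BET proteins showed no shift beyond their error. Brd2 had 186, 207 and 189 CPM in control and 190, 195 and 204 CPM in PB, with overlap and a log2 difference of 0.02 ± 0.06 (SE, FDR = 0.961). Brdt had 14.9, 11.2 and 14.7 CPM in control and 15.4, 10.3 and 16.1 CPM in PB, with a log2 difference of 0.04 ± 0.20 (SE, FDR = 0.978), the widest error of all members. Its lowest values were in control 2 and PB 2. Brd3 stood at -0.11 ± 0.16.

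The remaining readers had log2 differences from -0.12 to 0.09. Of the ISWI-type readers, Baz2b was lowest at -0.12 ± 0.10 (SE). With RefSeq transcripts alone it stood at 0.88 ± 0.17 (edgeR FDR = 0.917) in place of this, since these transcripts held 18.8%, 14.5% and 11.7% of its counts in control and 28.4%, 30.3% and 31.2% in PB. It was followed by Cecr2 (0.02 ± 0.10), Baz2a, a subunit of the complex that silences ribosomal DNA (0.04 ± 0.11), and Bptf, the large subunit of NURF (0.04 ± 0.04). Baz1b and Baz1a stood at 0.08 ± 0.05 and 0.09 ± 0.08. Taf1, the largest subunit of TFIID, was at 0.01 ± 0.07, Brd8 of the TIP60 complex at -0.08 ± 0.09, Atad2 at 0.05 ± 0.12 and Atad2b at -0.02 ± 0.04. A model on the opposite strand or outside the gene made up 7.67% to 10.3% of the Baz1a counts and 4.62% to 7.43% of the Brwd1 counts, and leaving such models out changed no call. Brd8 and Brd3 share their assembled locus with another gene name, so their sums are less certain.

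**Figure D3:**
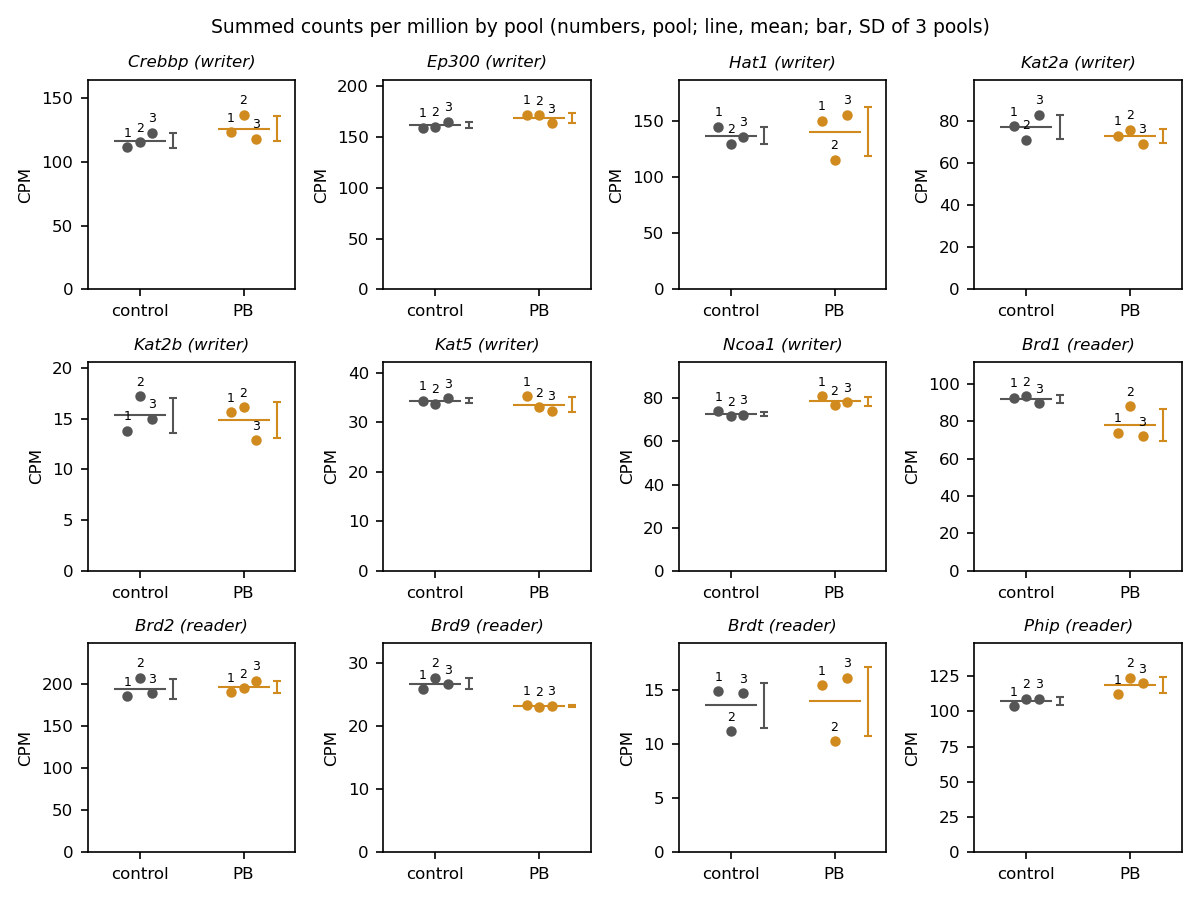
Summed CPM of 12 members in the 3 control and 3 PB pools (numbers mark pools; line, mean; bar, SD; axes start at 0). The groups do not overlap for Ncoa1, Brd1, Brd9 and Phip, and PB 2 and control 2 are the lowest pools of their groups for Hat1 and Brdt.

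The spread between pools had a common form. In 11 of 35 members, control 2 and PB 2 both lay below the other 4 pools, beside 12.9% of all genes. These were Hat1 and Ncoa3 of the writers (2 of 13) and Brd3, Brdt, Brpf1, Baz1b, Baz2a, Cecr2, Brwd1, Atad2 and Taf1 of the readers (9 of 22). Kat2b was the 1 member with both above the other 4, beside 12.7% of all genes. The same form was present in 5 of 7 germ cell markers, namely Ddx4, Dazl, Mael, Sycp3 and Stra8. It was looked for after the pool values had been seen, and the part of germ cell content in it was not tested.

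Brd3, for example, had 186, 147 and 178 CPM in control and 172, 122 and 180 CPM in PB. Brwd1 had 142, 116 and 142 CPM in control and 139, 130 and 149 CPM in PB, and Atad2, an ATPase with a bromodomain that follows the cell cycle, had 182, 161 and 178 and then 184, 149 and 206 CPM. In each of them the gap between pools of 1 group was larger than the gap between the group means. Left out together, the pools numbered 2 gave 7 members with an unadjusted p below 0.05 in place of 4, namely Kat2a, Ncoa1, Ncoa3, Brd1, Brd9, Baz1a and Baz1b, with a smallest FDR of 0.163 and no call, while the share over all genes was 11.4% in place of 4.46%. Leaving out PB 2 alone gave 8 such members, beside 12.3% of all genes, and again no call.

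**Figure D4:**
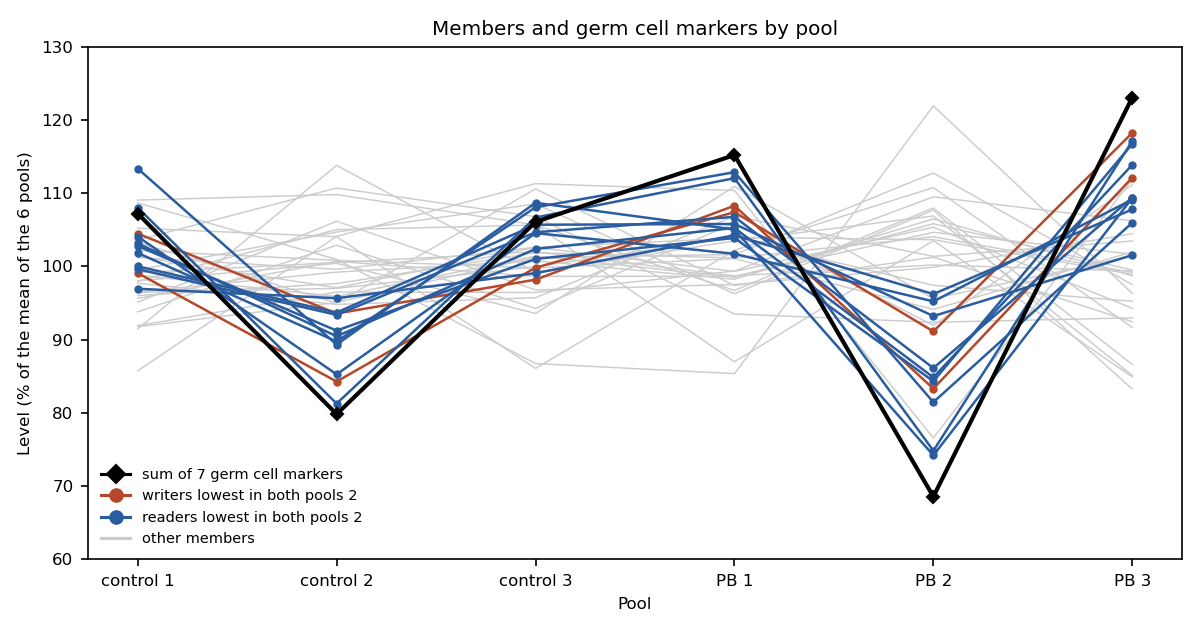
Level of each member in each pool as a percentage of its mean over the 6 pools; black diamonds, the summed germ cell markers; red and blue, the 2 writers and 9 readers that are lowest in both pools numbered 2; grey, the other members. The coloured members were picked for their dip in control 2 and PB 2, so their contrast with the grey lines is set by that choice. The summed germ cell markers are also lowest in these pools.

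The partners of these proteins were read from lists of SAGA and ATAC subunits, TIP60 complex subunits, partners of the MYST enzymes and further acetyl-lysine readers. Of 63 listed genes, 62 were tested, 0 were called, 40 were nominally higher in PB and 22 lower, and the median log2 difference was 0.02. An unadjusted p below 0.05 was reached by 2 of the 62 genes, beside 4.46% of all genes. Actl6a, an actin-related subunit of the TIP60 and BAF complexes, had 69.6, 67.7 and 70.7 CPM in control and 63.8, 62.5 and 62.3 CPM in PB, with a log2 difference of -0.14 ± 0.04 (SE, FDR = 0.888). Kansl1, a scaffold of the Kat8 complex, had 132, 131 and 135 CPM in control and 151, 139 and 144 CPM in PB, with 0.12 ± 0.05 (SE, FDR = 0.888). In both genes the groups did not overlap, which held for 10.7% of all genes.

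At the level of transcripts the picture differed in its spread. The biological coefficient of variation fitted by edgeR was 20.9% for gene sums and 98.4% for transcripts. Of 307 member transcripts tested, 0 were called by edgeR (17 of 51227 in all, 0.0332%), the smallest FDR was 0.589, and 21 had an unadjusted p below 0.05 beside 3.56% of all transcripts. On simulated counts the same test recovered 0 of 200 transcripts changed 2-fold and 0 of 200 changed 4-fold. The lack of edgeR calls therefore cannot tell whether member transcripts changed. DESeq2, the tool of the study, called 11 of the 323 member transcripts to which it gave an FDR (7 higher and 4 lower in PB), beside 1.84% of all transcripts. They belonged to 7 genes, 2 to the writer Crebbp and 9 to readers, and 7 of the 11 held less than 5% of their gene's counts in both groups. The transcripts that carried most of these differences are described gene by gene below, with counts as deposited. Such counts are estimates that divide shared reads among overlapping models.

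Crebbp had the largest exchange between groups of the writers. The RefSeq model XM_006521751.3 held 5837, 6416 and 10352 counts in control and 16, 31 and 12221 in PB, with pools in the order of their numbers here and throughout. The model XM_006521754.3 held 15, 10 and 0 counts in control and 9420, 10205 and 0 in PB (edgeR FDR = 1.00, DESeq2 FDR = 0.0393). A further model, XM_006521753.3, held 3072, 4887 and 0 counts in control and 0 in all PB pools (DESeq2 FDR = 0.0260). PB 1 and PB 2 therefore differed from all control pools, while PB 3 and control 3 were alike, with 0 counts for the last 2 models in both. The share of XM_006521751.3 in the gene was 64.3% in control and 28.1% in PB, and the gene sums of these pools lay within 111 to 137 CPM.

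The models differ at their ends and in the coding stretches printed below, which are shown because they help tell the Crebbp forms apart. XM_006521754.3 lacks 143 bases at the start of XM_006521751.3 (chr16:4213271-4213413). At its other end it holds 6 bases (chr16:4081334-4081339) that XM_006521751.3 lacks. XM_006521751.3 contains a cassette exon of 114 bases at chr16:4137366-4137479 (mm10, minus strand) that both other models lack. XM_006521754.3 also starts a later exon 30 bases further in, leaving out chr16:4101639-4101668. Both stretches lie in the coding sequence of the GENCODE M21 transcript that holds them, and both lengths are multiples of 3. They are printed in capitals with 20 bases of each flanking exon sequence.
Crebbp cassette exon: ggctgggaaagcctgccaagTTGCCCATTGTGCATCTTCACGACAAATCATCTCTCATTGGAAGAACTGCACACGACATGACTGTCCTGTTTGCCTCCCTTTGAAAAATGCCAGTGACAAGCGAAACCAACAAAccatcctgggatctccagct
Crebbp exon start: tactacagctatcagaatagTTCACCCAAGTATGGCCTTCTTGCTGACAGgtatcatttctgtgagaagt

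Ep300 showed an exchange that did not follow the groups. XM_006521089.1 held 11838, 13143 and 0 counts in control and 0, 13675 and 14475 in PB. In control 3 its place was taken by NM_177821.6, with 11607 counts against 388 and 429 in the other control pools. In PB 1 it was taken by the assembled model MSTRG.6455.1, with 15292 counts against 2568 and 2921 in the other PB pools. The gene sum stayed between 159 and 171 CPM throughout. Since MSTRG.6455.1 is not a RefSeq model, a sum over RefSeq models alone loses most of the PB 1 counts, so that its log2 difference was -0.36 by that count.

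Kat2a divided its counts between a pair of RefSeq forms. NM_020004.5 held 3364, 2754 and 2372 counts in control and 1462, 2268 and 1974 in PB, a share of 36.0% and 24.8% (edgeR FDR = 1.00). NM_001038010.2 held 4144, 5441 and 4823 counts in control and 5587, 5330 and 5973 in PB, a share of 60.6% and 73.4%. The share of the first form was 44.3%, 33.2% and 30.5% in control and 20.2%, 29.3% and 24.6% in PB, so the groups did not overlap. Kat2a is among the 5 members with the smallest isoform-use p-values, so such a gap follows in part from that choice. The share of all transcripts without overlap is not given. The forms differ by 3 bases at the start of a coding exon, chr11:100708983-100708985 (minus strand), which repeat the last 3 bases of the exon before and are printed in capitals.
Kat2a exon start: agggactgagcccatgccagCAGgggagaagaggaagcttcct

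Kat2b counts belonged almost wholly to NM_020005.4 in control (1356, 1997 and 1395 counts), and to a mixture in PB (824, 1131 and 1468 counts of the same form). XR_001782056.1, a non-coding model, held 0, 0 and 8 counts in control and 273, 156 and 21 in PB (edgeR FDR = 1.00). XM_006523820.3, which was picked after its values were seen, held 0, 1 and 0 counts in control and 453, 362 and 0 in PB. PB 3 was again close to the control pools. XR_001782056.1 lacks a coding exon of 137 bases at chr17:53648747-53648883 (plus strand), a length that is not a multiple of 3.
Kat2b exon: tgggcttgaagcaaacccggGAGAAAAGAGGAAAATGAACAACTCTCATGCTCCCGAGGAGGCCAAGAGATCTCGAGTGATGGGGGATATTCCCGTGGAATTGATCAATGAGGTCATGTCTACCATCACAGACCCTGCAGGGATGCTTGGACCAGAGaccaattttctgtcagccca

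The remaining writer transcripts with an unadjusted p below 0.05 and at least 5% of their gene were XM_017316082.1 of Kat6b and NM_001195004.1 of Kat7. The first held 567, 353 and 616 counts in control and 262, 245 and 291 in PB (8.71% and 4.19% of Kat6b). The second held 1099, 1239 and 282 counts in control and 288, 249 and 138 in PB (8.14% and 2.15% of Kat7). In the first the groups did not overlap in CPM, and in the second control 3 (2.87 CPM) lay close to the highest PB pool (2.79 CPM). Both were picked by p-value, so such gaps follow in part from that choice.

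Among readers, Brd3 carried the largest count. NM_001113574.1 held 3430, 107 and 4097 counts in control and 18, 117 and 84 in PB, or 15.49% and 0.432% of the gene (edgeR FDR = 1.00, DESeq2 FDR = 0.0086). Control 2 lay within the PB range, so the difference rested on control 1 and control 3. Brd3 counts also moved between models within groups. Assembled models held 69.9% in control 3 and 65.4% in PB 1, and at most 0.386% in the other pools. On average 84.1% of Brd3 counts lay on other transcripts between control pools, 77.3% between PB pools and 69.9% between groups. NM_001113574.1 contains an exon of 51 bases at chr2:27453400-27453450 (minus strand) that the RefSeq form NM_001113573.1 skips. That exon is coding in 3 of the 4 GENCODE transcripts that hold it.
Brd3 cassette exon: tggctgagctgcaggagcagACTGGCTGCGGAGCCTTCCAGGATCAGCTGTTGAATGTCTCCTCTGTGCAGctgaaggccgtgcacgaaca

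Brd1 is an example of a reader whose models traded places between single pools. MSTRG.6548.2 held 4329, 9226 and 0 counts in control and 6181, 52 and 6702 in PB. In control 3 the counts were on MSTRG.6548.3 (7038 counts), and in PB 2 on MSTRG.6548.5 (7213 counts). MSTRG.6548.1 held 3867, 665 and 1174 counts in control and 370, 585 and 532 in PB (edgeR FDR = 1.00). Control 1 stood apart, with 42.5% of Brd1 on this model, against 6.11% and 13.9% in the other control pools and 5.05%, 6.51% and 6.35% in PB. In Brd2, the non-coding model XR_385282.3 held 200, 140 and 185 counts in control and 124, 2033 and 1143 in PB (edgeR FDR = 1.00). In CPM, PB 1 lay within the control range of 1.16 to 1.95. In Brd9, XM_017315339.1 held 9, 8 and 4 counts in control and 16, 42 and 85 in PB (DESeq2 FDR = 0.0401), which is 0.253% of that gene in control and 1.88% in PB on average.

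Atad2b, an AAA ATPase with a bromodomain, had a model with counts in control alone. XM_017315117.1, which begins at an internal exon of the gene (chr12:4961218, plus strand), held 3224, 589 and 320 counts in control and 0 in all PB pools. Against 3 counts per PB library this was at least 482-fold lower in PB (edgeR FDR = 0.736, and a DESeq2 call). Control 1 supplied most of the counts, and the model made up 48.6%, 7.38% and 4.89% of Atad2b in control 1, 2 and 3. A neighbour, XM_017315116.1, held 92, 548 and 39 counts in control and 15, 10 and 22 in PB. Models that start at the first exon held 49.98%, 85.7% and 94.5% of Atad2b counts in control and 99.7%, 99.8% and 99.7% in PB. The gene sum was 67.5, 68.4 and 69.4 CPM in control and 67.2, 68.2 and 67.7 CPM in PB.

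The reader Baz2b had the most models with a DESeq2 call. XM_017319088.1 held 9, 4 and 0 counts in control and 173, 125 and 300 in PB. XM_017319100.1 held 0 counts in all control pools and 79, 22 and 106 in PB, which was at least 21.9-fold higher in PB against 3 counts per control library. XM_017319083.1 held 0, 0 and 3 counts in control and 50, 14 and 93 in PB. In PB these models held on average 3.94%, 1.37% and 1.03% of Baz2b, with 6.32% in PB 3 as the highest value of the first, and all 3 begin at the same upstream start, chr2:60161534 (minus strand).

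By start site, the models that begin at chr2:60125740 held 3895, 5123 and 4493 counts of Baz2b in control and 3353, 4674 and 3266 in PB. Those that begin at chr2:60161534 held 810, 476 and 474 counts in control and 1211, 681 and 1269 in PB. The upstream share was 16.9%, 7.95% and 9.46% in control and 25.9%, 12.6% and 26.7% in PB, so that PB 2 lay inside the control range. The 180 bases below are the upstream part of the RefSeq promoter window of the main start (chr2:60125811-60125990, GRCm38.p6, minus strand), shown because the start use of this gene was compared. Capitals mark a CCAAT motif, on the opposite strand, and a TATAAA motif. Baz2b was the only member with TATAAA in its window.
Baz2b promoter: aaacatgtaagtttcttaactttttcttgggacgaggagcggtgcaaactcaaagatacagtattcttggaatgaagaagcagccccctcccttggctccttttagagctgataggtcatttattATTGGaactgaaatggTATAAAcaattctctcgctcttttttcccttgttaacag

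Smaller differences completed the set. NM_054078.2 of Baz2a held 0, 7 and 1 counts in control and 53, 149 and 152 in PB, and XM_006532691.1 of Bptf held 86, 84 and 25 counts in control and 410, 177 and 747 in PB. Both were called by DESeq2, and in PB they held on average 0.661% of Baz2a and 2.45% of Bptf. The leading model differed between groups in 4 genes, namely Crebbp, Bptf, Brd2 and Pbrm1. In Bptf and Pbrm1 the models that changed order were close in share, for example 37.8% and 39.6% of Bptf in control and 39.5% and 39.3% in PB.

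**Figure D5:**
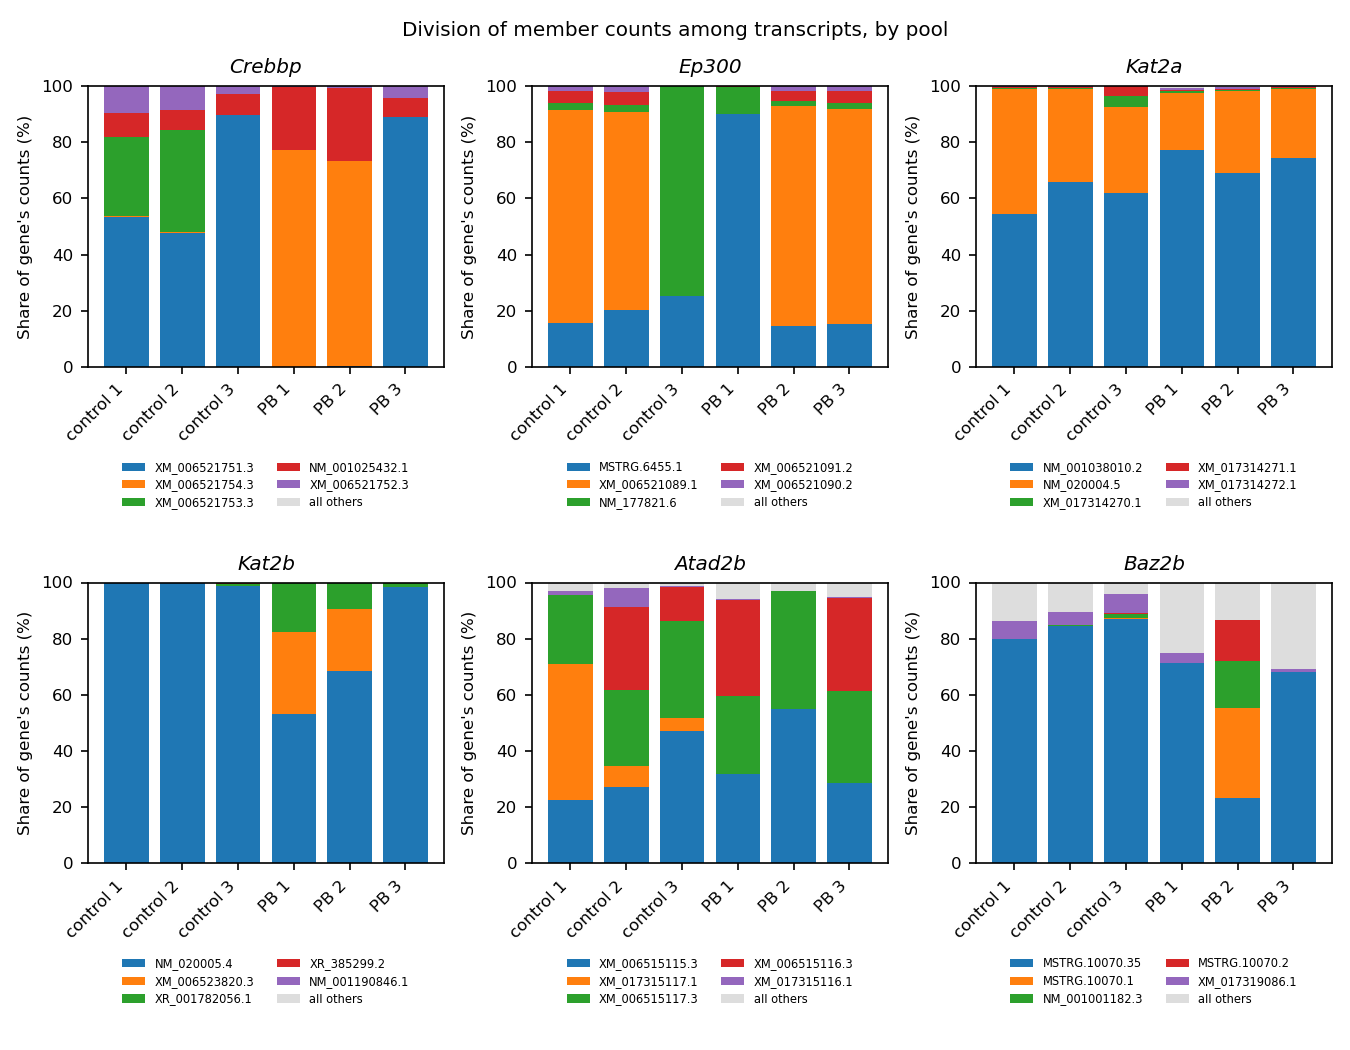
Share of each gene's counts (%) given to its transcripts in each pool, with the 5 transcripts of highest share coloured and all others in grey. Crebbp in PB 1 and PB 2, Kat2b in PB 1 and PB 2 and Ep300 in control 3 and PB 1 differ from the other pools, and XM_017315117.1 of Atad2b is absent from the PB pools.

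Whether the division of counts among transcripts differed between groups was tested gene by gene. With edgeR's diffSpliceDGE, 1 of 34 members was called at an FDR of 0.05, beside 1.58% of all genes, and 8 had an unadjusted p below 0.05, beside 8.19% of all genes. The member called was Baz2b (FDR = 0.0262). It was also the only member called by limma's diffSplice (FDR = 0.0131, with 1.18% of all genes called). Atad2b (FDR = 0.0941), Kat2b (FDR = 0.180), Kat2a (FDR = 0.259) and Brd2 (FDR = 0.311) followed. On simulated exchanges both tests missed most genes that had been changed, and most of the diffSpliceDGE calls were false, so calls and their absence are weak evidence. The counts in each pool given above are the same estimates that entered these tests, and they share that limit. For Baz2b, 9 of 14 alternative settings kept the call, and leaving out control 1 or control 2 ended it (FDR = 0.176 and 0.190).

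With transcripts merged by start site, 26 members could be tested and 1 was called, Atad2b (FDR = 0.0026), beside 1.40% of all genes. Baz2b was not called in that form (FDR = 0.988).

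The exchange between groups was next compared with that within groups. The leading transcript was the same in all 6 pools in 15 of 34 members (44.1%), beside 55.9% of all genes. Among genes with at least 5 transcripts the shares were 33.3% of 27 members and 40.0% of all genes. Between a pair of control pools, the median member had 13.4% of its counts on other transcripts, between a pair of PB pools 28.2%, and between a control and a PB pool 26.4%. Over all genes the corresponding values were 11.5%, 12.1% and 15.1%. These medians were not matched for transcript number. At least 5 transcripts were present in 27 of 34 members, beside 4851 of 13192 genes. The value between groups exceeded both values within groups in 3 of 34 members (8.82%), beside 11.9% of all genes. The members were Kat2a, Kat8 and Crebbp. For Crebbp these values were 28.96% within control, 63.2% within PB and 69.7% between groups, and for Kat8 they were 0.896%, 0.704% and 1.23%.

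Promoter sequence was not used in the choice of genes. A RefSeq promoter window (250 bases before to 50 after a start, GRCm38.p6) was found for 28 of the 35 members, 35 windows in all. Their median CpG count per window was 30, beside 17 in 17648 windows of all genes tested, and their median GC content was 68.0% beside 59.0%. The GC box (GGGCGG, either strand) was present in 26 of the 35 windows (74.3%), beside 54.8% of the windows of genes tested and 35.7% of all 32851 windows. CCAAT (either strand) was present in 10 windows (28.6%, beside 37.4% of windows of genes tested), and TATAAA (either strand) in 1 (2.86%, beside 8.22%). By side, the GC box was found in 9 of 14 writer windows and in 17 of 21 reader windows, and CCAAT in 6 and 4. Some of these windows overlap or belong to the same gene, and a match of letters is a description of sequence, not a binding site.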

How the data were processed

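Whole transcriptomes of 3 control and 3 PB pools of E15.5 ovaries were analysed. The authors aligned reads to mm10 with HISAT2 2.1.0, built a common set of transcript models guided by RefSeq with StringTie 1.3.5, and deposited raw counts per transcript made by prepDE from transcript coverage, per the labels and the study's methods. Their fold changes, p-values and 6 columns of normalized values were not used. Shared reads are divided by a model in such counts, so gene sums are more precise than single transcripts.

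Counts were summed by gene name (3.05 to 4.49% of counts carried no name). From the deposited annotation only names, positions, strands and classes were read. Gene sums and transcripts were filtered (filterByExpr, minimum count 10, minimum total 15), scaled by TMM and tested over all features with edgeR 4.0.16 (quasi-likelihood, Benjamini-Hochberg FDR). Called means a 2-fold change and an FDR of at most 0.05. DESeq2 1.42.0, limma 3.58.1 and R 4.3.3 gave alternatives. Isoform use was tested with diffSpliceDGE on gene names with at least 2 tested transcripts, and start sites within 200 bases were merged. CPM uses TMM-scaled totals. Scripts were tested on simulated data. Exon sequences were read from GENCODE M21 transcripts and promoters from RefSeq, both GRCm38, the genome of mm10.

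The members and all gene lists were chosen with earlier results of these data known. Values by pool are given for the writer and the reader with the highest and the lowest level per kb, the 3 of each side with the smallest p-values, Kat2a, Kat2b, Kat5, Ep300 and Brdt. Transcripts are named that DESeq2 called, that had an edgeR p below 0.05 and 5% of their gene in 1 group, or that led their gene in 1 group alone, as are the 5 members with the smallest isoform-use p-values and partner genes with a p below 0.05. Other genes and transcripts were added after their values were seen. Same-numbered pools of the groups correlated at 0.09, 0.15 and -0.02 in their deviations from the group means, which does not pair them.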

Additional observations from a re-analysis of the deposited data

How the results depend on the processing

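No member's gene sum was called under any alternative run (another scaling, filter, threshold or tool, the replicate block, RefSeq transcripts alone, sums by locus, or leaving out pools), and no member transcript was called by edgeR. The edgeR transcript test recovered 0 of 200 simulated 4-fold changes, so its lack of calls says little about the member transcripts. Counts over all features moved. Gene sums called were 3, against 11 with DESeq2, 8 with RefSeq transcripts alone, 10 without the pools numbered 2 (chosen after seeing the data) and 3 to 9 when single pools were left out. Transcripts called were 17, against 1169 with DESeq2 (11 of members), 39 with at least 10 counts in all pools of 1 group, 51 at an FDR of 0.1, 2 without the pools numbered 2 and 0 to 19 when single pools were left out. Isoform-use calls were 164 with 1 member, against 302 with 2 members under the stricter filter, 2 members at an FDR of 0.1, 0 members with RefSeq transcripts alone, 83 by start site, 593 without the pools numbered 2, and 265 to 323 with 0 to 3 members when single pools were left out. The replicate block gave 0 gene sums, 0 transcripts and 77 isoform-use calls with 0 members, where same-numbered pools share only a number. Without control 1 the transcript count was 0, and without PB 2 the gene-sum count was 9. The cause was not tested. The log2 difference turned in direction in 6 of the 35 members with RefSeq transcripts alone, among them Baz2b (0.88), Ncoa2 (0.38), Ep300 (-0.36), Kat6b (-0.11) and Brd1 (0.0033). When single pools were left out, 1 to 10 of the 35 members turned, and among those with values by pool the difference crossed 0 for Brd2 (-0.014 to 0.065), Brdt (-0.085 to 0.22), Hat1 (-0.044 to 0.16) and Kat2b (-0.12 to 0.051). Under every alternative, the writer and reader medians and their difference moved by less than their SD between PB pools (0.035, 0.061 and 0.083). The PB pools left out in turn also entered that SD, so small moves in those runs were largely set in advance. The control pools lay closer together, and some moves exceeded their spread. Leaving out control 2 took the difference to 0.066 and the reader median to -0.023. A call needed a 2-fold change, so smaller changes could not be called, and the variation of 98.4% between pools limits what is detectable for single transcripts.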
